A study of Macaca mulatta with 12 samples.

Results

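The miR-548 members of *Macaca mulatta* were examined as a family. They were chosen by name, as all pre-miRNAs whose names begin with mml-mir-548 or mml-miR-548 in the list of pre-miRNAs compiled by the study. This gave 122 members among the 832 pre-miRNAs of the list that were read here. Other rows of the list were not analysed, so that every statement on reads of 1 member, or on pre-miRNAs outside the family, holds within these 832. Of these members, 59 were listed by the study only, 20 by the study and a database and 43 by databases only, and 5 members, i.e., mml-mir-548c, 548g, 548h, 548i and 548j, were in miRBase. The reads came from 12 small RNA profiles of 8 tissues of untreated wild-type animals aged 36 months. There were 2 profiles each of muscle, kidney and both intestines (small and large), and 1 each of lung, liver, spinal cord and occipital lobe. The study used 2 animals, and the labels do not say which profile came from which animal, so that p-values measure only the spread between these profiles.

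A miRNA is cut from a hairpin precursor (pre-miRNA) as a short duplex, and the strands of this duplex are called the 5p and 3p miRNAs. The bases from the second to the eighth, the seed, decide much of the choice of target mRNAs. The miR-548 family is known from primates, where its hairpins derive from Made1, a short transposable element with long terminal inverted repeats. A Made1 copy is close to its own reverse complement, so that a transcript of either strand can fold into a hairpin. Whether the family is restricted to primates cannot be tested with profiles of 1 species.

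To show what the members look like, the hairpins that the results turn on are given 5′ to 3′ as listed by the study, with the mature miRNAs in capitals. The first is the member with the most reads, at chr6:35287638-35287718 on the plus strand of Mmul_8.0.1. The second is the member on the minus strand of the same locus, at chr6:35287634-35287729. The other two, at chr13:27117405-27117462 on the plus strand and chr4:113296852-113296909 on the minus strand, are the miRBase members with the most reads.
mml-miR-548p-9: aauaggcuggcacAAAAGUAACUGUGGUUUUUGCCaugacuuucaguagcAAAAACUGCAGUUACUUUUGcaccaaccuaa
mml-mir-548d-51: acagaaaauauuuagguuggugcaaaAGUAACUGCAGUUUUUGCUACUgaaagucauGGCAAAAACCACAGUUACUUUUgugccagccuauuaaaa
mml-mir-548h: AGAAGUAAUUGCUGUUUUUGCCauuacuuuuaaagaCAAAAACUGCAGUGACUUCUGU
mml-mir-548j: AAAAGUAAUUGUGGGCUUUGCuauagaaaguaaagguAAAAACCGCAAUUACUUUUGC
In these hairpins every 5p miRNA holds AGUAA and every 3p miRNA holds ACUU. The commonest stretch of 10 bases in the 5p miRNAs of the family was AAAGUAAUUG, which lay in the hairpins of 63 of 122 members (51.6%) and in 2 of 710 other pre-miRNAs (0.282%). The commonest stretch in the 3p miRNAs was AAUUACUUUU, in 48 members (39.3%) and again in 2 other pre-miRNAs. Both stretches were searched on the strand of the hairpin only. The family was thus well marked by sequence, but 65 members had fewer than 10 reads, as described next.

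The profiles held between 22118095 and 25579064 valid reads, and levels are given as RPTM, the reads per 10000000 valid reads, on which 1 read was worth between 0.391 and 0.452. Between 36.8% and 69.3% of the valid reads matched a listed pre-miRNA exactly, and the liver profile had the lowest share. Of 15 marker miRNAs of the labelled tissues, 10 were higher in every profile of their tissue than in any other profile, including miR-1, miR-133a and miR-206 of muscle, miR-122 of liver and miR-9 and miR-124 of the neural tissues. The 5 others, miR-192, miR-194, miR-143, miR-145 and miR-204, mark the intestines or kidney, and at least 1 profile of their tissue was below a profile of another tissue.

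Exact reads whose 5′ and 3′ ends were each at most 2 nt from those of a listed mature miRNA were assigned to the member, and a member was called detected with at least 10 such reads over the 12 profiles. The whole family had 2107 reads of 285066826 valid reads, or 73.9 in 10000000. Detection was reached by 57 of 122 members (46.7%), against 433 of 710 other pre-miRNAs (61.0%). The median member had 8 reads, while the median of the other pre-miRNAs was 51.5 reads and their highest value was 40319961 reads. Only 5 members reached 100 reads, and 23 members had no exact read anywhere in their hairpins. A count of 0 allows up to 3 reads, so that these members were not detectable at this depth. No assigned read was found for 29 members (23.8%) and for 170 of the other pre-miRNAs (23.9%), so that the share of unread hairpins was almost equal. The members that the study listed alone were detected in 39 of 59 cases (66.1%), those of the databases alone in 6 of 43 cases (13.95%). The study had chosen its pre-miRNAs by the reads on them in these same profiles, so this difference was set by the choice. The hairpin lengths of detected members (median 101 nt) and of members under 10 reads (median 98 nt) covered almost the same range, from 58 to 202 nt and from 55 to 200 nt.

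**Figure D1:**
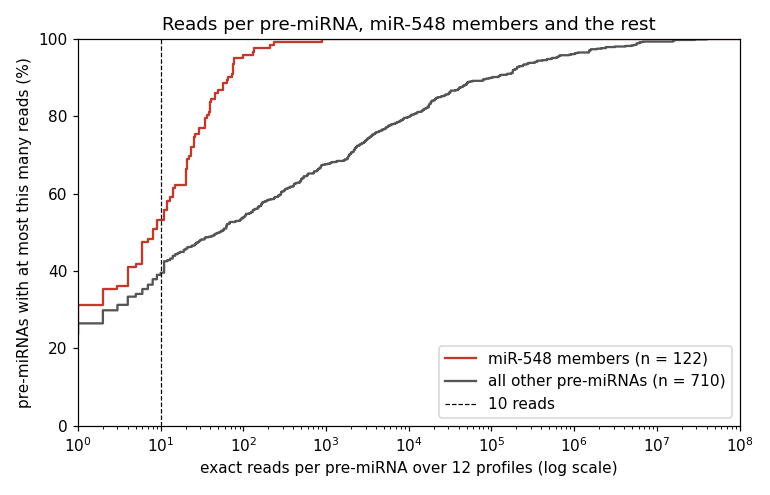
The share of pre-miRNAs (percent) with at most a given number of exact reads over 12 profiles (log scale), for the 122 miR-548 members and the 710 other pre-miRNAs. The curve of the members ends at 888 reads, whereas that of the other pre-miRNAs reaches 40319961 reads.

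Copies of the family are near-identical, so reads that fit several members were kept apart from reads that fit 1 member. Of the 2107 family reads, 1564 fitted a single member and 543 were shared by several (25.8%, 95% Wilson interval from 23.9% to 27.7%). These and the other intervals cover counting error only. No family read also matched a pre-miRNA outside the family. When single-member reads alone were counted, 11 members (9.02%) still had 10 reads, against 376 of the other pre-miRNAs (52.96%). These members were mml-miR-548p-9, 548a-30, 548az-2, 548az-4, 548d, 548d-61, 548e and 548j-17 and mml-mir-548h, 548i and 548j. The remaining 46 of the 57 detected members had fewer than 10 reads of their own. The share of shared reads ranged widely between profiles. It was 15.9% in the occipital lobe and 16.2% and 19.6% in muscle, but 51.2% and 51.1% in the small intestine and 46.7% in the liver. The kidney profiles, with 41.5% and 21.5%, lay far apart.

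By RPTM, the family was highest in muscle, spinal cord and occipital lobe. Its summed level was 160 and 138 RPTM in the muscle profiles, 150 RPTM in the spinal cord and 117 RPTM in the occipital lobe. It was 92.7 RPTM in the lung and 54.5 RPTM in the liver. The lowest levels were found in kidney (25.4 and 26.9 RPTM), large intestine (30.3 and 27.6 RPTM) and small intestine (32.7 and 38.0 RPTM). On this scale the spinal cord lay between both muscle profiles, and the kidney and intestinal profiles lay below every other profile. The TMM factors of the tests below were 2.41 in the spinal cord, 1.83 in the occipital lobe and 1.38 in the lung. They were 1.04 and 1.11 in muscle and from 0.586 to 0.672 in the intestines. Division by them would lower the neural and lung levels and raise the intestinal ones, so that this order holds for valid reads only. In whole tissue, more cells that make a miRNA and more of it in each cell cannot be told apart. Without mml-miR-548p-9 and mml-mir-548h the levels drew together: the muscle profiles then had 54.7 and 42.7 RPTM, the spinal cord 54.4, the lung 51.6, the liver 49.6 and the occipital lobe 44.8 RPTM. The small intestine (27.4 and 25.7 RPTM), kidney (18.8 and 13.6 RPTM) and large intestine (13.6 and 17.0 RPTM) stayed below them on the scale of valid reads. In the spinal cord, muscle, the occipital lobe and the large intestine profile with 30.3 RPTM, mml-miR-548p-9 and mml-mir-548h thus held most of the family reads.

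**Figure D2:**
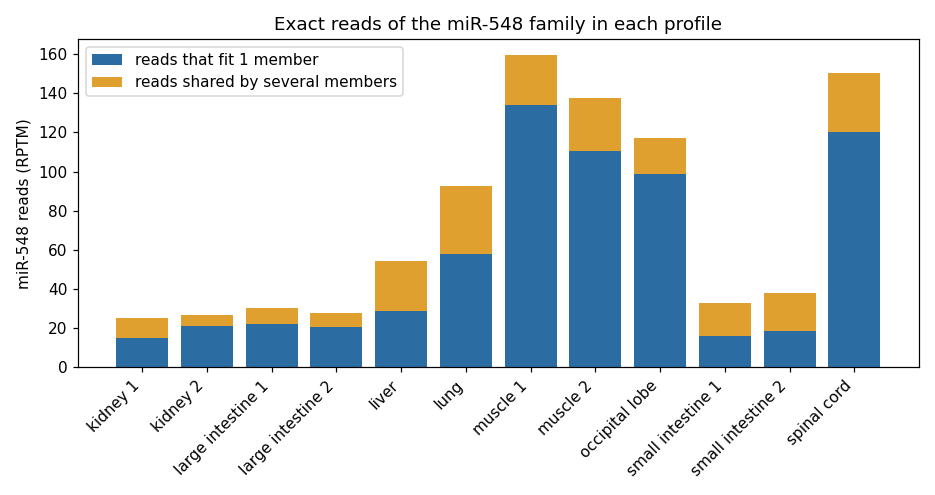
Exact reads of the miR-548 family (RPTM) in each of 12 profiles, split into reads that fit 1 member and reads shared by several members. The muscle, spinal cord and occipital lobe bars stand between 117 and 160 RPTM, and the kidney and intestine bars reach at most 38.0 RPTM.

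Both arms of the hairpins gave reads. The 5p arm had 1369 reads, the 3p arm 672 reads, and 66 reads fitted a 5p miRNA of 1 member and a 3p miRNA of another. The 5p arm held more than 50.0% of the family reads in 10 of the 12 profiles, among them both of muscle with 87.7% and 80.4%. The 3p arm prevailed in the spinal cord, with 68.5% (Wilson interval from 63.5% to 73.1%), and in the liver, with 57.8% (from 49.3% to 65.8%). Single sequences made up most of these reads. mml-mir-548h-3p had 196 of the 246 3p reads of the spinal cord, and mml-miR-548e-3p fitted 55 of the 78 of the liver. In muscle, mml-miR-548p-9-5p had 252 of 336 and 207 of 254 5p reads. These shares are thus not a preference of the whole family. The kidney profiles differed from each other, with 3p shares of 43.1% and 7.69% of 65 reads each. Reads began at the annotated base in 88.1% of cases, and 68.2% of them were 22 nt long.

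The 122 members carry 189 distinct mature sequences, 166 of which belong to 1 member and 23 to several. Of these sequences, 61 had a read and 32 had at least 10 reads. The 3 most-read unique sequences held 48.9% of all family reads. The sequences below are the mature miRNAs that the tissue results turn on, with the seed (bases 2 to 8) in capitals.
mml-miR-548p-9-5p: aAAAGUAAcugugguuuuugcc
mml-mir-548j-5p: aAAAGUAAuugugggcuuugc
mml-miR-548a-28-5p: aAAAGUAAuugugguuuuugc
mml-miR-548h-13-5p: aAAAGUAAucgcgguuuuugc
mml-miR-548j-17-5p: aAAAGUAAuugcgauuuuug
mml-mir-548h-3p: cAAAAACUgcagugacuucugu
mml-miR-548u-2-3p: aAAGACUGcaauuacuuuug
mml-miR-548av-1-3p: aAACUGCAguuacuuuuguacc
mml-miR-548e-3p: cAAAAACCacaauuacuuuugu
mml-mir-548i-3p: cAAAAUCGucuaugacuuuugc
The first 5 share the seed AAAGUAA, while the 3p miRNAs have 5 different seeds. The profile with the highest RPTM of a sequence was a muscle profile for 10 of the 32 sequences, the spinal cord for 6, and the liver and lung for 5 each. It was a small intestine profile for 5 and the occipital lobe for 1, and in no case was it a kidney or large intestine profile. The median sequence had 37.6% of its reads in that profile. Sequences that share reads were counted separately here, such as mml-miR-548e-3p, mml-miR-548ap-10-3p and mml-mir-548d-48-3p of the liver. No such tally was made for sequences outside the family.

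**Figure D3:**
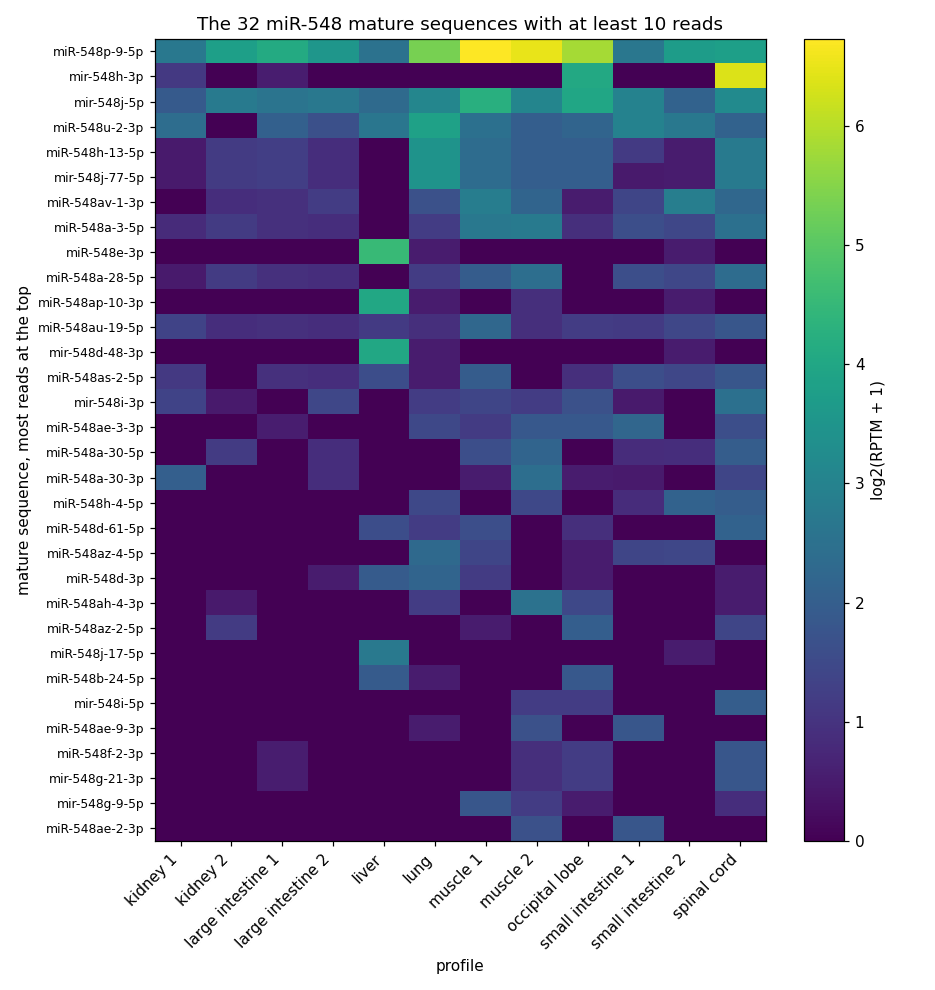
Level, as log2(RPTM + 1), of the 32 miR-548 mature sequences with at least 10 reads (rows, most reads at the top) in 12 profiles (columns). The miR-548p-9-5p row is brightest in muscle, the mir-548h-3p row in the spinal cord and occipital lobe, and miR-548e-3p, miR-548ap-10-3p and mir-548d-48-3p in the liver.

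mml-miR-548p-9-5p was the most abundant miRNA of the family, with 868 reads, each of which fitted this member alone. It had 252 and 207 reads in muscle, 127 in the occipital lobe, 91 in the lung, 31 in the spinal cord and 12 in the liver. In the kidney it had 14 and 31 reads, in the large intestine 36 and 25, and in the small intestine 13 and 29. The muscle profiles, with 105 and 90.2 RPTM, were above every other profile, the highest of which was the occipital lobe with 55.2 RPTM. The mean in muscle was 97.7 RPTM and the mean elsewhere 17.6 RPTM, a ratio of 5.56. In edgeR's quasi-likelihood test of muscle against the mean of the other 6 groups, in which the occipital lobe and spinal cord formed 1 neural group, the log2 fold change was 2.72 with a standard error of 0.48 (Benjamini-Hochberg adjusted p = 5.51e-07 over 598 sequences). It stayed between 2.56 and 2.91 in the alternatives, with adjusted p values from 2.83e-11 to 0.00241.

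The reads of mml-miR-548p-9-5p began at 2 places. A form that begins 1 base earlier, and so carries the seed AAAAGUA in place of AAAGUAA, made up 115 of 868 exact reads (13.2%, Wilson interval from 11.2% to 15.7%). A further 1505 reads, described below, begin at the listed start but end in U, and are not among the exact reads. Most reads of the earlier form end before that base, so that its share would be lower with the U reads counted. Its share was 10.3% in 1 muscle profile (from 7.14% to 14.7%) and 22.2% in the other (from 17.1% to 28.4%), so that the intervals of the same tissue did not overlap. It was 5.51% in the occipital lobe (from 2.70% to 10.9%). The commonest exact form was that listed by the study, with 692 reads of exactly its 22 bases, and the form shifted by 1 base had 94 reads.
listed form: aAAAGUAAcugugguuuuugcc
form 1 base earlier: cAAAAGUAacugugguuuuugc

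mml-mir-548h-3p was found almost only in the neural tissues. Of its 236 reads, 196 came from the spinal cord and 36 from the occipital lobe, 3 from 1 kidney profile and 1 from 1 large intestine profile, and the other 8 profiles had none. A count of 0 allows between 1.17 and 1.36 RPTM in a profile, whereas the spinal cord had 82.0 RPTM and the occipital lobe 15.6 RPTM. The fitted log2 fold change of the neural group against the mean of the others was 7.65 (standard error 0.99, edgeR adjusted p = 3.27e-12). The sequence had enough reads to be tested only because of its neural reads, so this p value is a description only. The neural group also joins different tissues with 1 profile each. The size of this fold rests on 4 reads outside the neural tissues, and it stayed between 6.07 and 8.86 in the alternatives. Without the occipital lobe it was 8.29, and without the spinal cord 6.07. Its reads shared 1 start and ended at 3 neighbouring bases, with 149 reads of 22 nt, 44 of 21 nt and 43 of 20 nt. The 5p arm of the same hairpin had 1 read. In RefSeq (T2T-MMU8v2.0) the gene MIR548H lies inside DPYSL5, which encodes a dihydropyrimidinase-like protein of the nervous system, between MAPRE3 and CENPA.

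mml-mir-548j-5p was the most evenly spread of the abundant sequences. It was read in all 12 profiles, with 211 single-member reads and from 2.74 RPTM in a kidney profile to 17.9 RPTM in a muscle profile. The occipital lobe, with 34 reads, lay between the muscle profiles, with 43 and 17 reads, and no contrast called it. In muscle, its log2 fold change of 1.04 had an adjusted p of 0.32 by edgeR. The annotated mature miRNA ends at base 21, but only 8 of its reads had exactly that sequence and 189 ended 1 base later. The seed was not changed by this longer end.
longer form of mml-mir-548j-5p: aAAAGUAAuugugggcuuugcu
The remaining miRBase members were rare. mml-mir-548i had 49 reads, 36 of the 3p and 13 of the 5p miRNA, with 11 and 7 of these in the spinal cord. mml-mir-548g had 1 read, in the spinal cord, and mml-mir-548c had none. RefSeq places MIR548J between VIP and FBXO5, MIR548G between OSR1 and NT5C1B, and MIR548C between MYB and AHI1, and MIR548I inside the lncRNA LOC106997250.

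The sequences shared by several copies were at lower levels. mml-miR-548u-2-3p, the 3p miRNA of 548u-2, 548u-7 and 548u-9, had 131 reads, with 31 in the lung (13.6 RPTM) and between 0 and 6.96 RPTM elsewhere. mml-miR-548h-13-5p, which is common to 5 members, had 74 reads, and 23 of these were again in the lung (10.1 RPTM), with 5.86 RPTM in the spinal cord as the next highest. The lung had 1 profile, so that these higher levels have no replicate check. mml-miR-548av-1-3p, which mml-miR-548p-10 shares, had 64 reads, with 6.26 and 3.49 RPTM in muscle and 1.64 and 6.33 RPTM in the small intestine. mml-miR-548a-3-5p, common to 5 members, had 60 reads and its highest levels in muscle, 5.42 and 5.66 RPTM, followed by 4.601 RPTM in the spinal cord. In muscle its log2 fold change was 2.66 with an adjusted p of 0.061 by edgeR. It passed the threshold of 0.05 with RLE factors (0.041), with valid reads as the scale (0.046) and with 8 tissues as groups (0.037). The 32 sequences fell into 21 groups that share no read, 15 of which had a single sequence, so the 32 tests are not independent.

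In the liver, a set of 3p miRNAs with the seed AAAAACC was found that was nearly missing from other profiles. mml-miR-548e-3p had 55 of its 57 reads in the liver (22.2 RPTM), 1 in the lung and 1 in a small intestine profile. mml-miR-548ap-10-3p had 38 of 42 reads and mml-mir-548d-48-3p 38 of 40 reads in the liver. These miRNAs differ at their 3′ ends only and share a sequence of 21 nt that fits 4 members and had 38 reads, 36 of them in the liver. The full 22 nt of mml-miR-548e-3p, which fit no other member, had 19 reads, all in the liver.
shared by 4 members: cAAAAACCacaauuacuuuug
mml-miR-548e-3p only: cAAAAACCacaauuacuuuugu
A 5p miRNA of another member, mml-miR-548j-17-5p, had 14 of 15 reads in the liver. There was 1 liver profile, so that no test was made. The liver profile also had the lowest share of reads of 21 to 23 nt, 57.3% against 58.8% to 80.5% in the others, and the part of this in the result was not tested. Without the liver profile, 50 members and 27 mature sequences were detected instead of 57 and 32.

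Members that overlap on opposite strands were found at 8 loci, which were searched for reads of both strands. At the locus of mml-miR-548p-9 the plus strand had 888 reads and mml-mir-548d-51 on the minus strand had 0. In 3 pairs both members had more than 10 reads, namely mml-miR-548p-10 (98) with 548ap-10 (38), 548e (57) with 548a-41 (46), and 548ax-1 (46) with 548a-3 (34). Of these reads only 19 of 548e and 6 of 548ax-1 fitted a single member. Reads that belong to 1 member of a pair alone thus never came to 10 on both strands. In the other 4 pairs 1 member had 0 or 2 reads and the other between 9 and 41.

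Although the members look alike, their seeds are many. The 189 mature sequences have 92 distinct seeds, 60 of which occur in 1 sequence only. Seeds were also judged by the first bases of the exact reads, including reads in the hairpins outside the mature miRNAs. AAAGUAA was carried by 1164 reads, AAAAACU by 290, AAAAGUA by 149 and AAGACUG by 95. Set against the 2107 reads at mature miRNAs, a slightly smaller set, these were 55.2%, 13.8%, 7.07% and 4.51%. AAAGUAA reads were found in every profile, whereas 57 of 69 AAAAACC reads came from the liver, and of the AAAAACU reads 214 came from the spinal cord and 42 from the occipital lobe. In all, 7 seeds of the family also occur in 7 mature sequences outside it. The only abundant ones were mml-mir-219-2-3p, a miRNA of neural tissue, with 49562 reads and the seed GAAUUGU, and mml-mir-382-5p with 138 reads and the seed AAGUUGU. The family sequences with these seeds were barely read: mml-miR-548u-9-5p (GAAUUGU) had 2 reads and mml-miR-548am-1-5p (AAGUUGU) had 0. mml-miR-570-3p, with the seed AAAAACU of mml-mir-548h-3p, had 3 reads. Single bases set many members apart, and 48 of the 189 sequences were in 36 pairs of equal length that differ at 1 base.

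The tissues with 2 profiles and the neural group were each compared with the mean of the other groups over 598 sequences, 32 of them of the family. In muscle, 2 of the 32 sequences were called (6.25%), both higher. Among all tested sequences 24.6% were called in this contrast and 14.7% were called higher. The second was mml-mir-548g-9-5p, with 6 and 3 reads in muscle, 1 in the occipital lobe, 2 in the spinal cord and none elsewhere. It passed the filter of 10 reads only through its muscle reads, so that its call is given as a description. All 12 reads also fitted other members, and its adjusted p of 0.030 (edgeR) rose to 0.073 without the filter on low counts. In neural tissue 1 of 32 was called (3.12%), against 55.4% of all sequences in either direction and 39.1% that were higher. This was mml-mir-548h-3p, which passed the filter only through its neural reads, so that its call is likewise a description. With valid reads as the scale, 6 of the family were called in neural tissue, and the share of all sequences called was not worked out. The median log2 fold change of all sequences was then 2.05 in neural tissue, beside 0.88 with TMM factors. No sequence of the family was called in kidney, small intestine or large intestine by edgeR with TMM factors and 7 groups or by DESeq2, where 17.2%, 14.5% and 12.7% of all sequences were called by edgeR. Unadjusted p values under 0.05 were found for 0, 6 and 0 of the 32. With 8 tissues as groups 2 were called in small intestine, and with the replicate number as a block 1 in kidney. Beside these counts, the shares over all sequences were not worked out. Single profiles moved these counts: 1 sequence was called in muscle without muscle 2, 1 in small intestine without small intestine 2, and 2 in the neural group without the occipital lobe. In these fits 1 profile stood for the tissue, in the last case the spinal cord, and the spread came from the other groups. The median log2 fold change of the 32 sequences was 1.86 in muscle, beside -0.26 for all sequences, 0.41 in neural tissue beside 0.88, and -1.27 in kidney beside -0.38. In small intestine it was 0.41 beside -0.14, and in large intestine 0.05 beside 0.01. A sequence without reads in a tissue has no measured fold change there, as for mml-miR-548e-3p in kidney (-2.42, standard error 5937). Many of the 32 kidney values were of this kind, and some of the 32 sequences share reads. These medians are thus descriptions only. The scale matters here: with valid reads in place of TMM factors the fold changes of all sequences moved by a median of 1.16 in neural tissue, by -0.82 in large intestine, -0.72 in small intestine and -0.30 in kidney, and by 0.06 in muscle. In simulated counts, 200 of 598 sequences were changed by a factor of 8 in muscle. Each sequence had the same level in all other tissues there, unlike the real profiles, so that the rates may not hold for the family. The test called 95.2% of the changed sequences with at least 100 reads and 37.0% of those below. These rates were not worked out for rises alone, and only 4 family sequences had 100 reads.

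Reads with 1 mismatch outnumbered the exact reads. In the 12 profiles, 6656 reads of 341 unique sequences differed at 1 base from a mature miRNA of the family, or from its forms with ends up to 2 nt away, and matched no listed pre-miRNA exactly. This was 3.16 such reads per exact read. The forms described here were chosen after their values were seen, and positions are counted from 1 at the 5′ end of the mature miRNA. The change C22U of mml-miR-548p-9-5p, at its last base, had 1577 reads in all 12 profiles. Its main sequence had 1505 reads, more than the 692 of the listed form.
listed form: aAAAGUAAcugugguuuuugcc
last base U: aAAAGUAAcugugguuuuugcu
Like the listed form, the U form was highest in muscle, with 249 and 186 RPTM, followed by the occipital lobe (53.9), the spinal cord (39.7) and the lung (34.5 RPTM). It made up 68.5% of both forms together (Wilson interval from 66.5% to 70.4%). In muscle its share was 73.8% and 74.7%, in the occipital lobe 51.9% (from 45.6% to 58.1%), in the lung 52.7% (from 44.7% to 60.5%) and in the spinal cord 82.6% (from 74.7% to 88.5%). The source of these reads was not tested.

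**Figure D4:**
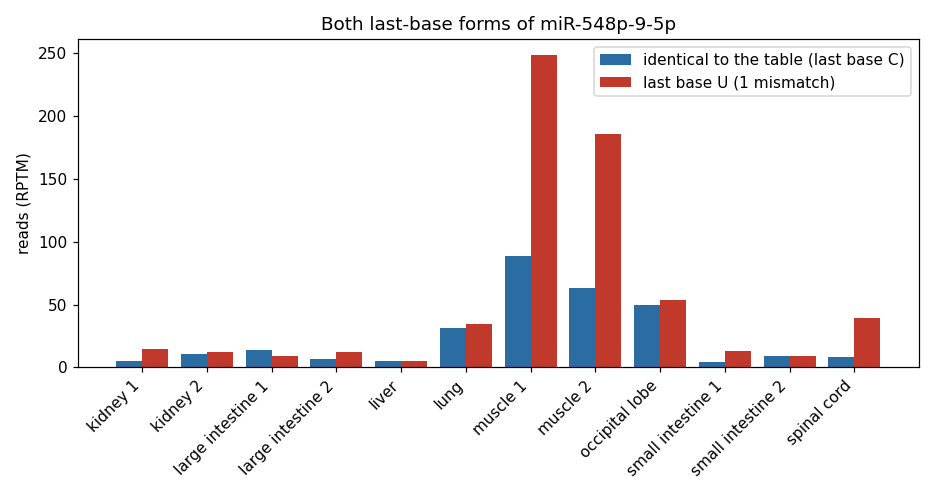
Reads (RPTM) of the 22-nt sequence of miR-548p-9-5p as listed, which ends in C, and of the sequence that ends in U, in each of 12 profiles. In both muscle profiles the U form (249 and 186 RPTM) stands above the listed form (88.4 and 63.2 RPTM), while both forms are close in the occipital lobe and lung.

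The largest group of mismatched reads was of another kind. Reads with the change U14G of mml-miR-548as-2-3p numbered 2427, although that miRNA had 2 exact reads. They were highest in the small intestine, with 209 and 266 RPTM, and the large intestine, with 160 and 179 RPTM. The lung had 56.4 RPTM, the kidney 45.7 and 42.6, the muscle 30.04 and 15.3, the liver 13.7, the spinal cord 7.53 and the occipital lobe 0.43 RPTM. Reads with the change A7C of mml-miR-548aj-28-5p, which had 6 exact reads, numbered 855 and followed the same order at the top, with 67.1 and 110 RPTM in the small intestine and 57.9 and 65.0 RPTM in the large intestine. They reached 19.5 RPTM at most in the other profiles. Both forms were thus highest in the intestines, where the exact reads of the family were among the lowest. No test was made on them.
near mml-miR-548aj-28-5p: aAAAGUCAuugcgguucuugcc
near mml-miR-548as-2-3p: cAAAAAUCgcaaugacuuuugc
Laid against each other as a duplex with 3′ overhangs of 2 nt, these sequences form 18 Watson-Crick pairs and 1 G-U pair over 20 positions. The changed bases face each other here, C against G, where the listed miRNAs have A against U. The listed miRNAs, which belong to different members, thus form the same number of pairs. Whether both forms come from 1 hairpin was not tested. The 22-nt sequence shown for the 3p form had 215 reads, and the commonest form, which is 1 base shorter, had 992. Neither sequence lies in any of the 832 pre-miRNAs read here.

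**Figure D5:**
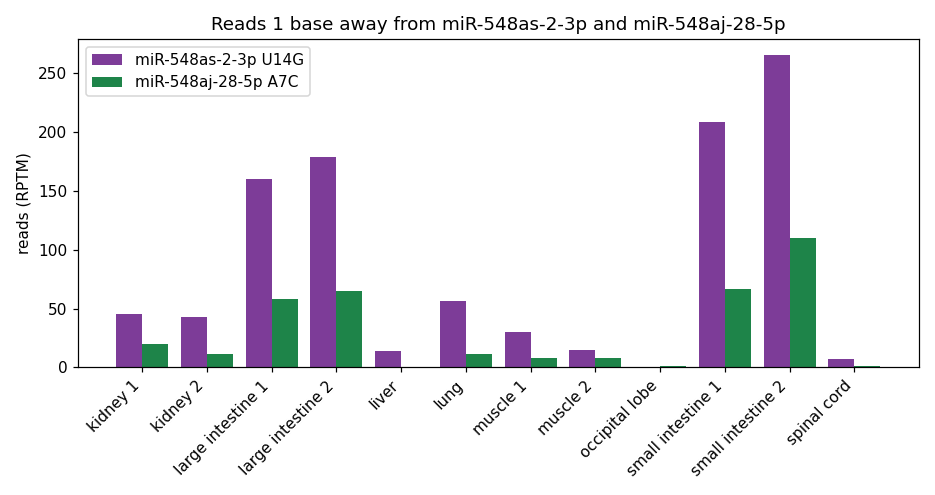
Reads (RPTM) that differ from miR-548as-2-3p by U14G and from miR-548aj-28-5p by A7C in each of 12 profiles. Both forms are highest in the 4 intestinal profiles, at 160 to 266 RPTM and 57.9 to 110 RPTM, and near 0 in the occipital lobe.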

How the data were processed

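For each of the 12 profiles the authors deposited read counts per unique sequence, from RNA extracted with TRIzol, prepared with the TruSeq small RNA kit and sequenced on an Illumina HiSeq. They kept reads with scores of at least 30 in the first 25 nucleotides, trimmed adapters and, without normalization, tallied sequences of at least 18 nucleotides. The depth and the worth of 1 read are given above. The members, lists and tests were chosen with earlier results of these data known.

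Pre-miRNAs and mature miRNAs were taken from the study's list on Mmul_8.0.1, of which 832 rows could be read. No genome was used, so that reads from unlisted loci were not removed. Chromosome names were given to the listed sequences through 500 pre-miRNAs outside the family that match a RefSeq name (T2T-MMU8v2.0), each of which agreed on the chromosome. Exact reads of 18 to 44 nt were assigned with an end tolerance of 2 nt and counted once in family totals, but for every mature sequence that they fit in tests. RPTM values were calculated from valid reads.

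The test was the quasi-likelihood F-test of edgeR 4.0.16 (limma 3.58.1, R 4.3.3) on sequences with at least 10 reads, with TMM factors, 7 groups and Benjamini-Hochberg adjustment. The standard error was derived from the F statistic. DESeq2 1.42.0 and other filters, scales, groups and assignments were alternatives, and profiles were left out 1 at a time. It was checked on simulated data. Reading, counting and figures used Python 3.11.15, numpy 2.4.6, scipy 1.17.1 and matplotlib 3.10.9. Named were the 5 miRBase members, the 10 most-read mature sequences, those called in a contrast, pairs on both strands, and outside sequences that share a seed. Other names were chosen after their values were seen.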

Additional observations from a re-analysis of the deposited data

Results flagged for a closer look

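Reads that match no listed pre-miRNA exactly were outside the comparisons and were above the limit that a count of 0 allows. There were 6656 such reads with 1 mismatch to a mature miRNA of the family. The largest groups were 2427 reads with U14G of mml-miR-548as-2-3p, 1577 with C22U and 255 with A7G of mml-miR-548p-9-5p, and 855 with A7C of mml-miR-548aj-28-5p. Of the A7G reads, 194 were of 1 sequence that begins 2 bases later and ends 1 base later than mml-miR-548p-9-5p. It thus carries the seed AGUGACU, which mml-mir-548j-109-5p also has, and its source was not tested. The A7G reads had 67 reads in the liver and 46 and 61 in the small intestine, whereas the exact reads of mml-miR-548p-9-5p were highest in muscle. Of all mismatched reads, 65.7% had the change inside the mature miRNA and 27.0% in its last 2 bases.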

How the results depend on the processing

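The number of detected members depended on the minimum number of reads. With a minimum of 1 read 93 members, 29 members by single-member reads and 61 mature sequences were detected, and with a minimum of 100 reads 5, 3 and 4. With reads identical to the mature miRNA the family had 1362 reads and 17 detected mature sequences. In muscle, 1 sequence was called without a filter, with the filter of the study, with DESeq2, with reads that fit 1 sequence only, with the replicate block, and in the 8 numbered profiles without the block, a fit chosen after seeing the data, 3 with RLE factors or with valid reads as the scale, and 4 with 8 tissues as groups. Leaving out 1 muscle profile gave 1 to 2 calls. In small intestine, 2 were called with 8 tissues as groups, and 0 to 1 without 1 profile. In neural tissue, 6 were called with valid reads as the scale, 2 with identical reads, 3 with reads that fit 1 sequence, and 1 to 2 without 1 profile. Leaving out 1 profile leaves 1 in the arm, which is assumed to vary like the other groups. The causes were not tested, and the shares of all sequences called were worked out for the main fit only. The replicate numbers were not taken as pairs: deviations of same-numbered profiles correlated between -0.14 and 0.15, and the animal of each profile is unknown. With the replicate block 1 sequence was called in kidney, i.e., mml-miR-548p-9-5p (-1.33, adjusted p = 0.041). The called fold changes kept their direction in every alternative that gave a value.

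Fold changes that were not called often changed sign. The log2 values of the other sign are given here with their miR-548 member in brackets, and none of them was called. With valid reads as the scale these were in kidney -0.082 (548a-3-5p) and -0.22 (548a-28-5p), in small intestine -0.39 (548j-5p), in large intestine -0.52 (548p-9-5p), -0.37 (548j-5p), -0.25 (548h-13-5p), -0.0997 (548j-77-5p), -0.0069 (548av-1-3p), -0.30 (548a-3-5p) and -0.092 (548a-28-5p), in neural 1.04 (548p-9-5p), 0.95 (548j-5p) and 1.06 (548av-1-3p). With RLE factors they were in kidney 0.0067 (548j-77-5p), in neural -0.046 (548a-28-5p). With identical reads they were in kidney -0.77 (548a-3-5p), in small intestine -1.21 (548e-3p), in large intestine -0.045 (548p-9-5p), 0.19 (548u-2-3p) and -2.48 (548a-28-5p), in neural 0.15 (548p-9-5p), 0.66 (548av-1-3p), -1.01 (548a-3-5p) and -0.62 (548a-28-5p). With reads that fit 1 sequence they were in small intestine -1.20 (548e-3p), in neural 0.013 (548p-9-5p). With 8 tissues as groups the value was in large intestine 0.17 (548u-2-3p). With the replicate block they were in kidney -1.03 (548a-3-5p) and -1.14 (548a-28-5p), in small intestine -0.18 (548j-5p), in large intestine -0.18 (548p-9-5p), -0.54 (548av-1-3p), -0.96 (548a-3-5p) and -0.65 (548a-28-5p). In the same profiles without the block they were in kidney -1.02 (548a-3-5p) and -1.10 (548a-28-5p), in small intestine -0.16 (548j-5p), in large intestine -0.26 (548p-9-5p), -0.54 (548av-1-3p), -0.96 (548a-3-5p) and -0.67 (548a-28-5p). With DESeq2 the value was in neural -0.18 (548a-28-5p). Leaving out 1 profile gave in kidney -1.98 to 2.72 (548h-3p), -1.28 to 0.27 (548j-5p), -1.61 to 0.40 (548h-13-5p), -1.46 to 0.55 (548j-77-5p), -0.33 to 0.76 (548a-3-5p) and -1.08 to 0.93 (548a-28-5p). Leaving out 1 profile gave in muscle -0.60 to 0.079 (548u-2-3p). Leaving out 1 profile gave in small intestine -0.30 to 0.73 (548j-5p), -0.92 to 0.55 (548h-13-5p) and -1.95 to 1.93 (548e-3p). Leaving out 1 profile gave in large intestine -2.13 to 1.83 (548h-3p) and -0.22 to 0.15 (548u-2-3p). Leaving out 1 profile gave in neural -1.72 to 0.60 (548p-9-5p), -0.88 to 0.18 (548j-5p), -2.10 to 0.52 (548av-1-3p), -1.13 to 0.92 (548a-3-5p) and -4.18 to 0.94 (548a-28-5p).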
